A study of Bos taurus with 6 samples.

Results

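The calpains and their inhibitor calpastatin were examined in Musculus longissimus dorsi, a muscle along the spine, in cattle of 2 breeds. The members are all probe sets whose platform annotation gives exactly 1 gene symbol and whose symbol is CAPN1, CAPN2, CAPN3, CAPN6, CAPNS1 or CAST. This gave 5 of the 6 genes, of 9155 genes named in all, and 7 of 24016 probe sets: 1 probe set each for CAPN1, CAPN2 and CAPN3 and 2 each for CAPNS1 and CAST. No probe set carried CAPN6, a calpain without protease activity, as its only symbol, so CAPN6 was not analysed here. The groups were 3 Japanese Black steers, a beef breed known for fat within the muscle, and 3 Holstein steers, a breed kept mainly for milk. All 6 animals were male, all had received energy-rich feeding, and each was measured on 1 Affymetrix array. The labels used here give no ages, and with no other feed in the series the values describe the breeds under this feeding only.

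Calpains are calcium-dependent cysteine proteases of the cytoplasm that cut their substrates at a limited number of sites. CAPN1 (µ-calpain) and CAPN2 (m-calpain) are large catalytic subunits that each pair with the small regulatory subunit CAPNS1, and CAPN3 is a large calpain of skeletal muscle that binds titin and whose loss in humans causes a limb-girdle muscular dystrophy. CAST encodes calpastatin, the specific protein inhibitor of the heterodimeric calpains CAPN1 and CAPN2. It is not known to inhibit CAPN3, so the ratio of CAPN3 to CAST below does not set a protease against its inhibitor. The balance of calpain and calpastatin is studied in beef because it bears on the breakdown of myofibrils after slaughter. Transcript levels say nothing of protease activity, which depends on calcium.

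No calpain or calpastatin probe set differed between the breeds beyond the spread between animals. With limma's moderated test, adjusted by Benjamini-Hochberg over 18012 probe sets, 0 of the 7 had an adjusted p under 0.05, against 0.0167% of all probe sets tested. At an unadjusted p under 0.05 the count was also 0 of 7, against 12.6% of all. A plain test without moderated variances gave 0 of 7 at an adjusted p under 0.05, with a smallest adjusted p of 0.567. The breeds overlapped at all 7, and did not overlap at 19.8% of all probe sets. With only 7 probe sets, a count of 0 does not set the members apart from that share. The Japanese Black mean was above the Holstein mean at 3 probe sets and below it at 4. The median difference was -0.04, beside a median of 0.01 over all probe sets tested. A difference is the mean of Japanese Black less that of Holstein, after 16 is added to each signal and log2 is taken; the added 16 makes changes of dim probe sets look smaller. SE and 95% intervals are limma's.

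**Figure D1:**
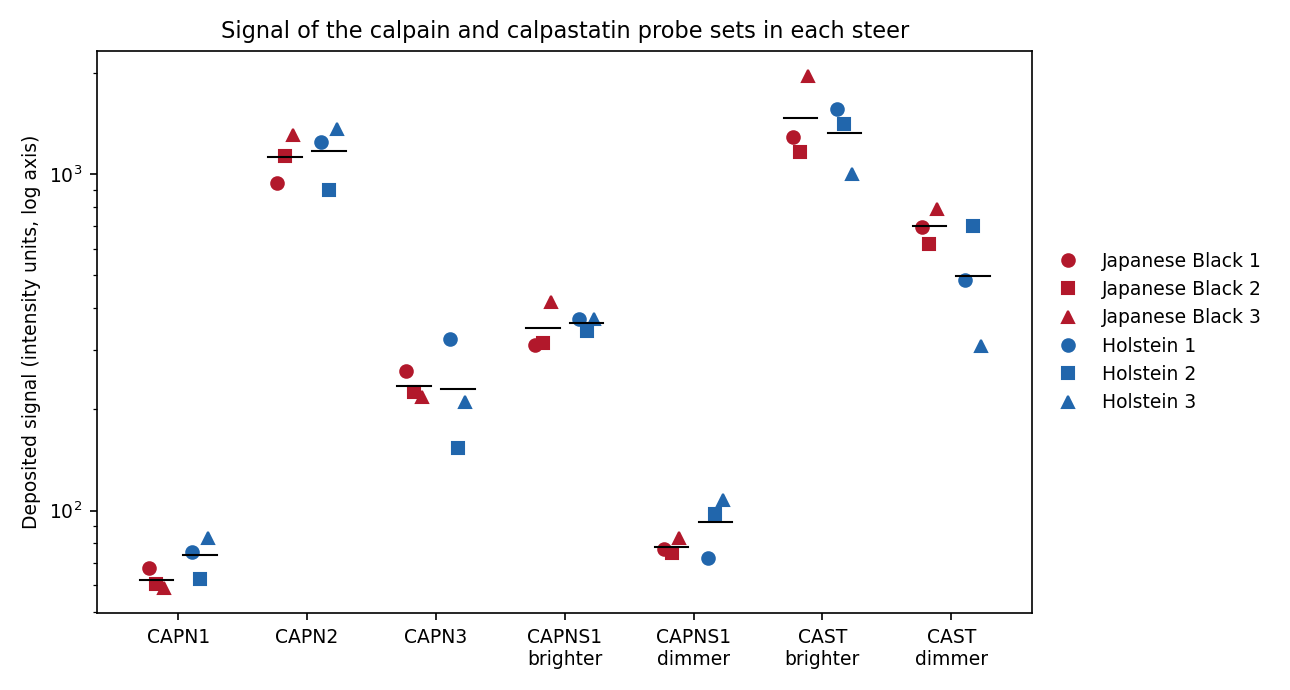
Deposited signal (log axis, intensity units) of the 7 calpain and calpastatin probe sets in each of the 6 steers, red for Japanese Black and blue for Holstein, with a bar at each breed's mean (n = 3). The breeds overlap at every probe set shown. Heights of different probe sets are not comparable, because probes differ in how they bind.

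Among the catalytic subunits, CAPN1 had the probe set of lowest signal, at percentiles 51.6 to 60.6 of the signals of an array. It read 67.4, 60.6 and 59.1 intensity units in Japanese Black 1, 2 and 3 and 75.3, 62.7 and 82.9 in Holstein 1, 2 and 3, where the median signal of an array was 48.5 to 54.7. Holstein 1 and Holstein 3 lay above all 3 Japanese Black animals, and Holstein 2 lay among them. The means were 62.4 ± 4.44 and 73.6 ± 10.2 (SD, n = 3 each), a log2 difference of -0.19 (SE 0.16, 95% interval -0.55 to 0.18, limma adjusted p 0.629).

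CAPN2 had a bright probe set. It read 943, 1133 and 1304 in Japanese Black and 1245, 895 and 1363 in Holstein. The highest and the lowest animal were both Holstein. The means were 1127 ± 181 and 1168 ± 243 (SD, n = 3 each). The log2 difference was -0.04 (SE 0.20, 95% interval -0.49 to 0.41, limma adjusted p 0.945), so that a Japanese Black level more than 1.40-fold below or 1.33-fold above Holstein lies outside the interval.

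CAPN3, the muscle calpain, varied more among the Holstein animals than among the Japanese Black animals. It read 259.8, 225 and 218 in Japanese Black and 324, 153 and 211 in Holstein. The Japanese Black values lay within the Holstein range, and the difference in spread was not tested. The means were 234 ± 22.5 and 229 ± 87.1 (SD, n = 3 each), with a log2 difference of 0.08 (SE 0.25, 95% interval -0.48 to 0.65, limma adjusted p 0.905). The name of its probe set marks it as reading several transcripts of the gene, so the splice forms of CAPN3 cannot be told apart.

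The regulatory subunit CAPNS1 was read by a brighter and a dimmer probe set. The brighter one read 311, 315 and 418 in Japanese Black and 372, 343 and 371 in Holstein. Its highest animal was Japanese Black 3, and the other 2 Japanese Black animals were the lowest. The log2 difference was -0.06 (SE 0.17, 95% interval -0.45 to 0.32, limma adjusted p 0.892). The dimmer one read 77.2, 74.8 and 82.8 in Japanese Black and 72.5, 98.0 and 107 in Holstein, with a difference of -0.19 (SE 0.18, limma adjusted p 0.653). The animals stood in a different order at the 2 probe sets: Holstein 1 was second highest at the brighter one and lowest at the dimmer one.

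Calpastatin gave, at its dimmer probe set, the widest within-breed spread and the smallest p of the 7 members. At the brighter CAST probe set the signals were 1289.8, 1166 and 1953 in Japanese Black and 1557, 1413 and 1004 in Holstein, and the breeds were interleaved. The means were 1470 ± 423 and 1325 ± 287 (SD, n = 3 each), a log2 difference of 0.14 (SE 0.23, 95% interval -0.39 to 0.66, limma adjusted p 0.822).

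At the dimmer CAST probe set the signals were 696, 619 and 787 in Japanese Black and 486, 700.45 and 308 in Holstein. Holstein 1 and Holstein 3 lay below all Japanese Black animals, and Holstein 2 lay among them. The means were 701 ± 83.8 and 498 ± 197 (SD, n = 3 each). The log2 difference was 0.55 (SE 0.27, 95% interval -0.06 to 1.16, unadjusted p 0.0733, limma adjusted p 0.432), and leaving out Holstein 3 or Holstein 2 moved it to 0.25 or 0.82 (adjusted p 0.803 and 0.229). The interval reaches from 1.05-fold lower to 2.23-fold higher in Japanese Black. The within-breed SD on the log2 scale was 0.42 at this probe set, 0.36 at the brighter one and 0.37 at CAPN3, against 0.13 at CAPN1 and a median of 0.23 over all probe sets tested.

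**Figure D2:**
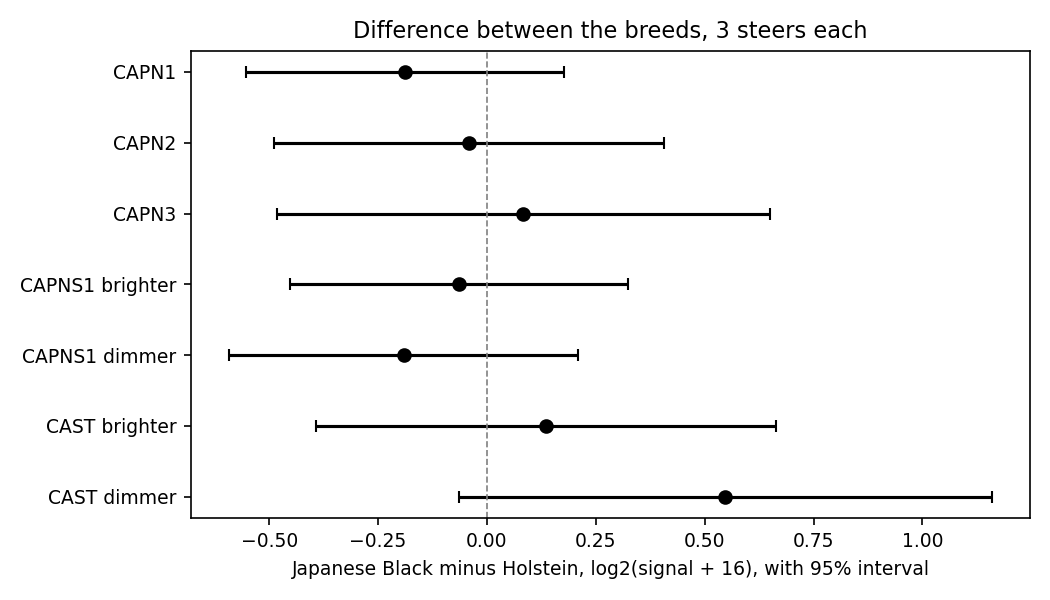
Difference between the breeds at each probe set, Japanese Black minus Holstein in log2(signal + 16), with limma's 95% interval as bars (n = 3 steers each). All 7 intervals include 0; the dimmer CAST probe set has the largest difference, 0.55.

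The brighter and the dimmer CAST probe set gave breed differences of unlike size, 0.14 and 0.55. Both were highest in Japanese Black 3 and lowest in Holstein 3. Relative to the brighter one, the dimmer CAST probe set stood 0.35, 0.33 and -0.07 from the mean of the 6 animals in Japanese Black and -0.42, 0.23 and -0.43 in Holstein on the log2 scale. Holstein 2 lay above Japanese Black 3, so the breeds overlapped. The log2 difference of this ratio was 0.41, with an SE of 0.26 from its own spread and an exact two-sided permutation p of 0.2. With 3 animals against 3 that test cannot go below 0.1.

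The ratio of each calpain to calpastatin was taken in each array as the difference of their log2 values. Its absolute level sets one probe against another and was not read; only its differences between animals were. Relative to the brighter CAST probe set, all 5 calpain probe sets had a lower mean ratio in Japanese Black. Each ratio difference is the probe set's own difference less that of CAST (0.14). The median difference of all probe sets was 0.01, so most probe sets had a lower mean ratio too. CAPN3 itself had a difference above 0 (0.08). None of the calpain ratio differences passed, adjusted or at an unadjusted p under 0.05. The log2 difference was -0.32 for CAPN1, -0.18 for CAPN2, -0.05 for CAPN3, and -0.20 and -0.33 for the brighter and the dimmer CAPNS1 probe set. Exact two-sided permutation p-values lay between 0.4 and 0.7, and the limma adjusted p over the whole table of ratios was 0.998 for each, where 0.466% of all probe sets passed. The breeds overlapped at all 5, and did not overlap at 5.85% of all ratios to this probe set.

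For CAPN1 the ratio stood 0.08, 0.10 and -0.67 from the mean of the 6 animals in Japanese Black and -0.06, -0.13 and 0.68 in Holstein. For CAPN2 it stood -0.18, 0.22 and -0.31 from the mean in Japanese Black and -0.05, -0.38 and 0.70 in Holstein. Holstein 3 was the highest animal at all 5 calpain probe sets. In the signals themselves Holstein 3 was highest at 3 of the 7 members (CAPN1, CAPN2 and the dimmer CAPNS1) and at 24.3% of all probe sets, and lowest at both CAST probe sets and at 27.6% of all. It was also the highest animal at 62.2% of all probe sets when they were divided by this CAST probe set, so the position of Holstein 3 is that of most genes relative to CAST. CAPN3 gave 0.27, 0.22 and -0.56 in Japanese Black and 0.30, -0.57 and 0.34 in Holstein. Without Holstein 3 the difference was -0.06 for CAPN1, 0.13 for CAPN2, 0.11 for CAPN3, and 0.0032 and -0.04 for the brighter and the dimmer CAPNS1 probe set.

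Relative to the dimmer CAST probe set, which itself differed by 0.55, the differences were larger. Again most probe sets had a lower mean ratio in Japanese Black. The calpain differences did not pass either, adjusted or at an unadjusted p under 0.05. They were -0.74 for CAPN1, -0.59 for CAPN2, -0.46 for CAPN3, and -0.61 and -0.74 for the brighter and dimmer CAPNS1 probe sets. The limma adjusted p lay between 0.325 and 0.426. The SE was 0.39 to 0.42 when pooled over all ratios, and 0.37 to 0.53 from each ratio's own spread. At this denominator 0.55% of all probe sets passed. Exact two-sided permutation p-values lay between 0.1, the smallest possible, and 0.4. The breeds did not overlap at 1 of the 5, the dimmer CAPNS1 probe set, and at 20.2% of all ratios to this probe set. Holstein 3 was again the highest animal at all 5, and at 88.4% of all probe sets. Without Holstein 3 the differences lay between -0.37 (CAPN1) and -0.17 (CAPN2). The 10 ratios share their denominators, so they are not independent of each other.

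**Figure D3:**
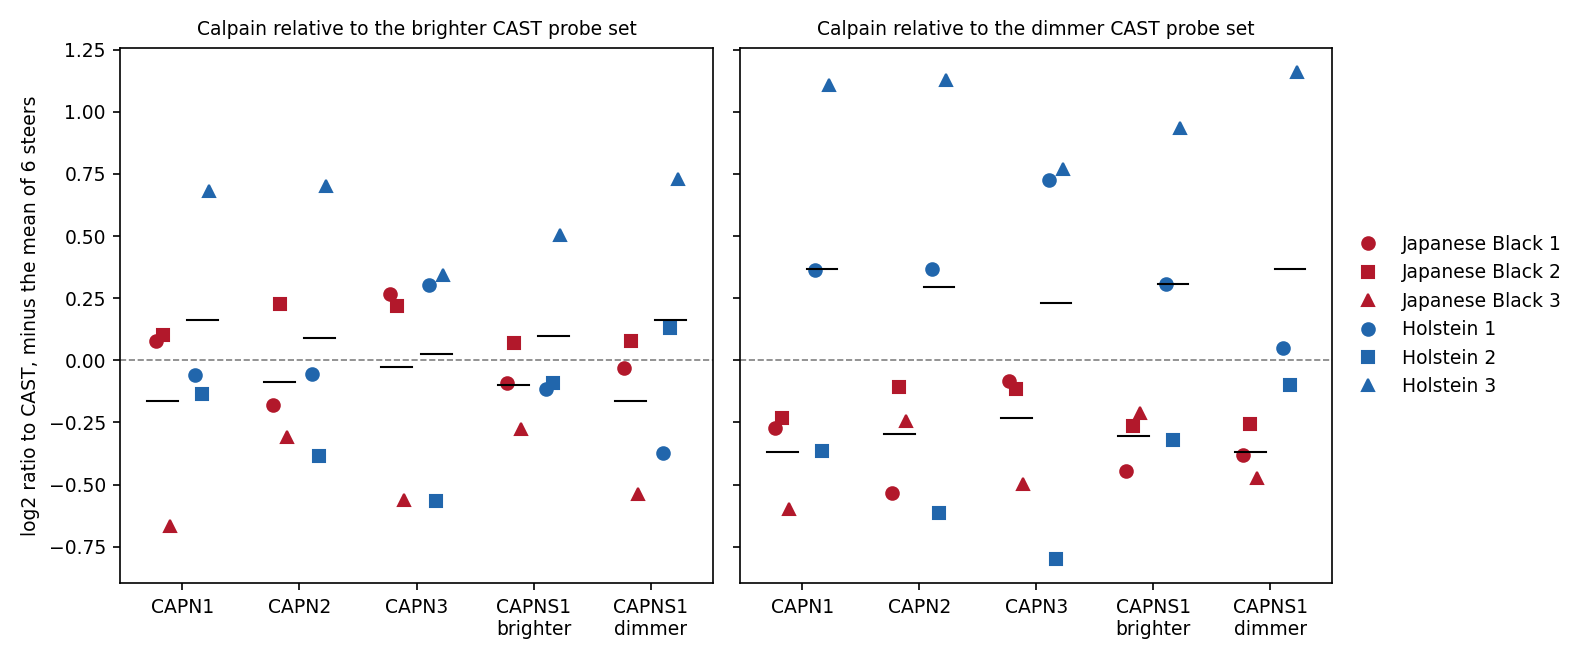
Log2 ratio of each calpain probe set to CAST in each steer, minus the mean of the 6 steers, with the brighter CAST probe set as denominator on the left and the dimmer one on the right; bars are breed means (n = 3). Holstein 3 (blue triangle) is the highest animal in all 10 columns.

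Across the series, 247 to 372 probe sets per array were listed at 0, none of them a member. Muscle fibre markers were bright in all animals: 11 of 12 were measured, none was at 0, and their summed signal was 136029 to 142280 in Japanese Black and 140836 to 142682 in Holstein. Of 8 adipocyte markers 6 were measured, none at 0, and their sum was 3417 to 13574 in Japanese Black and 1765 to 11796 in Holstein. Japanese Black 3 had the highest adipocyte level and the highest signal at both CAST probe sets, and Holstein 3 the lowest of all 3. In Japanese Black 1 and 2 and Holstein 1 and 2, the log2 adipocyte level was -0.60, -0.26, 0.05 and 0.86 from the overall mean. The brighter CAST probe set stood at -0.08, -0.23, 0.19 and 0.05 there, and the dimmer one at 0.27, 0.11, -0.23 and 0.28. Japanese Black 3 was also highest for smooth muscle (0.77) and fibroblast markers (0.31), where Holstein 3 (-0.10 and 0.16) was not lowest. Smooth muscle markers (8 of 8 measured, none at 0) summed to 5030 to 15297 and 5859 to 11246, fibroblast markers (10 of 10, none at 0) to 7833 to 13657 and 10772 to 11797, endothelial markers (9 of 10, none at 0) to 1878 to 3027 and 2853 to 3583, and leukocyte markers (9 of 12, none at 0) to 579 to 699 and 591 to 919, in Japanese Black and Holstein. The mean log2 of the hybridisation controls, RNA added to every array, stood at 0.45 in Holstein 3 and at -0.22 to 0.03 in the other 5 animals, relative to their overall mean. The ratio of the 3′ to the 5′ actin control was 1.11 to 1.14 in Japanese Black and 1.003 to 1.07 in Holstein. The part of the cell types, the controls and RNA quality in the calpastatin values was not tested. In whole muscle, fewer cells of a type and less RNA per cell cannot be told apart.

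**Figure D4:**
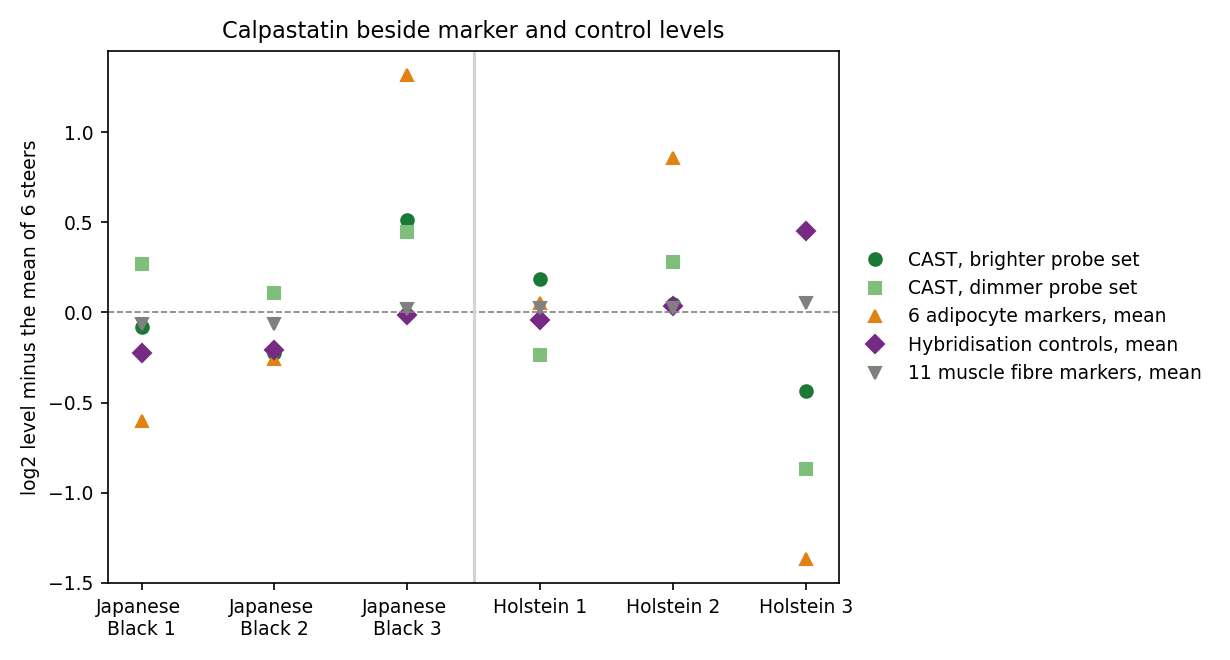
Log2 level minus the mean of the 6 steers for the 2 CAST probe sets, the mean of 6 adipocyte markers, the mean of the hybridisation controls and the mean of 11 muscle fibre markers, by steer. Holstein 3 is lowest for both CAST probe sets and for the adipocyte markers (-1.37) and highest for the hybridisation controls (0.45), while the fibre markers stay between -0.06 and 0.05. Smooth muscle and fibroblast markers, highest in Japanese Black 3 like CAST and the adipocyte markers, are not shown.

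The genes whose log2 signal followed each member most closely over the 6 arrays are given as a description; each was picked as the highest of all named genes tested. How often values this high arise over 6 arrays was not tested. Pearson r was over 0.95 for 47 genes with CAPN1, 18 with CAPN2, 3 with CAPN3, 62 with CAPNS1 and 74 with CAST. These counts are out of the 8050 named genes tested, less the members themselves. For CAST the closest were COX16 (Pearson r 0.998, Spearman rho 1) and GOLGA7 (r 0.992, rho 1). COX16, an assembly factor of cytochrome c oxidase, read 332, 305 and 533 in Japanese Black and 405, 368 and 259.5 in Holstein, in the same order of animals as the brighter CAST probe set. For CAPN3 they were CA2, a carbonic anhydrase (r 0.995, rho 1), and ACAT2, an acetyl-CoA acetyltransferase (r 0.994, rho 1). CA2 read 1478, 1229.9 and 1199 in Japanese Black and 2522, 631 and 1103 in Holstein. For CAPN1 they were F2R, a thrombin receptor, and PCBP4 (r 0.995 and 0.994, rho 1 each), for CAPN2 MLLT11 and ATP13A2 (r 0.982 each, rho 1 and 0.943), and for the brighter CAPNS1 probe set GJA1, a gap junction protein, and MPC2, a mitochondrial pyruvate carrier subunit (r 0.997 and 0.993, rho 0.943 and 0.886). F2R (18.8 to 40.8) and ATP13A2 (12.8 to 22.0) were dim, below the median signal of every array.

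Genes around the calpain system were taken from 4 lists, each gene by its probe set of highest mean, and 0 genes of any list passed limma's adjusted threshold. At an unadjusted p under 0.05 there were 0 other calpain genes, 2 genes of the myofibril and membrane skeleton, 1 cathepsin and 0 caspases or regulators, against 11.3% of all genes taken the same way. The breeds did not overlap at 0, 2 (ACTN2 and TPM2), 1 (CTSW) and 2 (BCL2 and BCL2L1) genes of these lists. Among all 8050 genes they did not overlap at 1542. Of 12 names of other calpain genes 2 were measured. CAPN7, an atypical calpain without the calcium-binding domain of the classical ones, read 488, 723 and 418 in Japanese Black and 386, 567 and 264 in Holstein, a difference of 0.43 (SE 0.29, limma adjusted p 0.543). CAPN5 had a difference of -0.39 (SE 0.26, limma adjusted p 0.533) at its brighter probe set and 0.10 at its dimmer one. The breeds overlapped at both genes.

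Proteins of the myofibril and membrane skeleton that calpains cut or CAPN3 binds were the largest list, with 21 of 30 measured. TTN, the gene of the titin that CAPN3 binds, was not among the measured genes. Of the measured genes 10 had a positive difference and 11 a negative one, with a median of -0.04, against a median of -0.01 over 8050 genes. Without Japanese Black 3 the median was -0.21, where that of all genes was -0.05. The smallest p belonged to ACTN2, the alpha-actinin that cross-links actin at the Z-disc. It read 5975, 6178 and 6378 in Japanese Black and 8761, 7978 and 10116 in Holstein, and the breeds did not overlap. Its difference of -0.53 (SE 0.11) had an unadjusted p of 0.00126 and did not pass (limma adjusted p 0.236). FLNC, the filamin of muscle, read 4378, 6218 and 4081 in Japanese Black and 9517, 5618 and 10924 in Holstein. The differences were -0.80 (SE 0.25, limma adjusted p 0.321) at its brighter probe set and -1.02 (SE 0.31, limma adjusted p 0.321) at its dimmer one. DES, the intermediate filament protein desmin, differed by -0.27 (SE 0.16) and LDB3, a Z-disc scaffold, by -0.17 (SE 0.11), and neither passed (limma adjusted p 0.497 and 0.543).

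In the lists of other proteases no gene passed either. Of 17 cathepsins and cystatins, the lysosomal proteases and their inhibitors, 14 were measured, with 7 positive and 7 negative differences and a median of -0.00079. Leaving out single animals moved that median between -0.18 (Japanese Black 3) and 0.10 (Japanese Black 2), while that of all genes was -0.05 and 0.01. CTSC had the smallest p, with a difference of -0.72 (SE 0.30, limma adjusted p 0.389), followed by CTSK (-0.34), CTSA (0.41) and CTSW (-0.32), with limma adjusted p between 0.484 and 0.499. CTSW was dim, at 16.8 to 20.7 intensity units in all animals but Holstein 3, which read 38.5. Of 23 caspases and regulators of cell death 11 were tested, with 5 higher and 6 lower and a median of -0.01. Leaving out Japanese Black 1 or Japanese Black 3 moved that median to 0.11 or -0.11, where that of all genes was 0.03 or -0.05. BCL2, an inhibitor of apoptosis, had a difference of 0.27 (SE 0.13, limma adjusted p 0.417) at its brightest probe set, while its other probe sets gave 0.31, -0.49, 0.17 and -0.17. CASP6 (-0.32), BCL2L1 (-0.25) and NOL3 (-0.26) did not pass (limma adjusted p 0.470, 0.509 and 0.516). The second NOL3 probe set gave -0.43 (unadjusted p 0.0272, limma adjusted p 0.362) and the BCL2 probe set at -0.49 had an unadjusted p of 0.0276, so the count of 0 for this list holds for the brightest probe sets only.

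**Figure D5:**
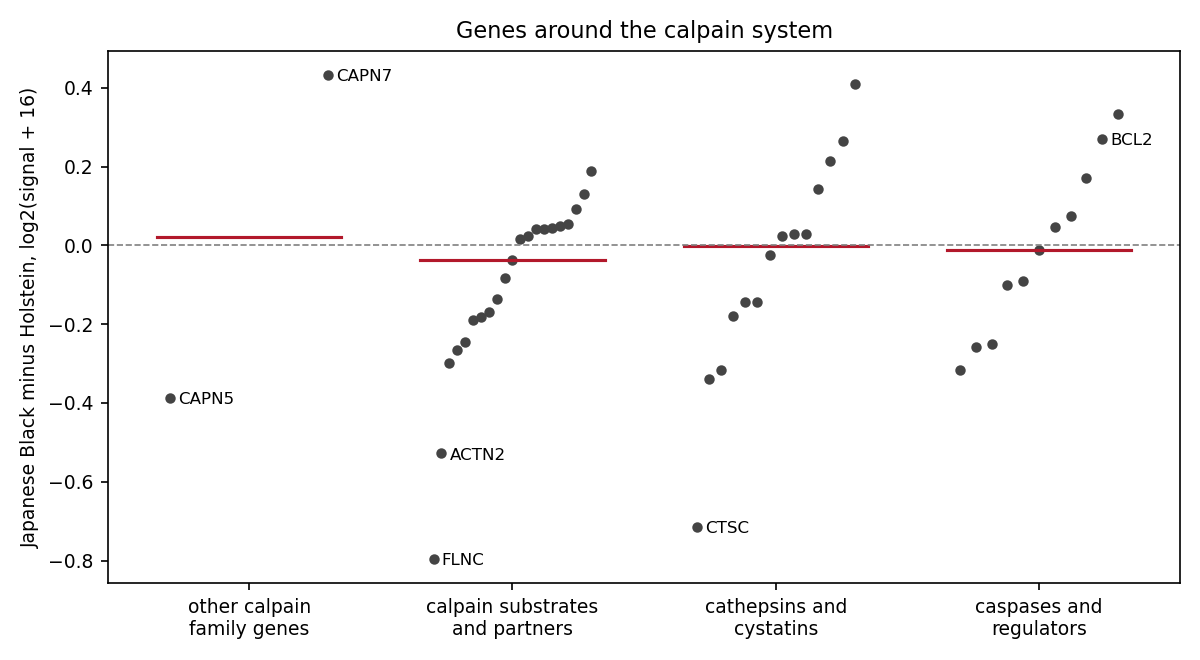
Difference between the breeds (Japanese Black minus Holstein, log2(signal + 16), n = 3 steers each) for every measured gene of the 4 lists, sorted within each list, with a red bar at the list's median. The medians lie between -0.04 and 0.02, and none of the genes passed the adjusted threshold.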

How the data were processed

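Total RNA of the muscle was hybridised to 1 array per steer. The authors deposited 1 linear intensity per probe set, made with GCOS 1.1.1 and Affymetrix Expression Console 1.1 per the submitters' processing notes; for the summary algorithm and scaling, the sources used here give nothing. Breeds come from the labels, and animal numbers 1 to 3 are names only. That the steers are separate animals is read from the labels.

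Of 24128 probe sets 112 controls were left out. After adding 16 and taking log2, the dimmest 25% were left out, which left 18012, all 7 members among them. limma 3.58.1 (R 4.3.3) compared the breeds (lmFit, eBayes with an intensity trend, two-sided, Benjamini-Hochberg, threshold 0.05). The series names a paired t-test, but no label pairs the animals, so the fit was unpaired. For ratios the log2 value of CAST was subtracted from every probe set before the same fit. Its denominator is shared, so its SE is pooled over all ratios and its calls move together; an exact permutation test was run beside it.

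Symbols came from the platform annotation; 13292 probe sets had 1. All 5 measured genes matched RefSeq (ARS-UCD2.0) by identifier. No coordinates or sequences are shown, since no build is named for the table. All members were reported; list genes were the 4 of smallest p, and 2 genes per member were named by Pearson r. Members, lists and rules were chosen with earlier results of these data known. The fit was also tested on simulated data. Alternatives were other offsets, filters, scalings, variance models, array weights, probe set choices and leaving out each array; tests of ratios without moderation, and of ratios to the dimmer CAST probe set without Holstein 3, were added after seeing the data. Figures used matplotlib 3.10.9 in Python 3.11.15.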

Additional observations from a re-analysis of the deposited data

How the results depend on the processing

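The number of arrays limits the precision. None of the 7 probe sets or 4 calpain to CAST ratios passed the adjusted threshold under any alternative that could be fitted. No list gene passed under any alternative run on the lists, which left out the test without moderated variances. Array weights could not be fitted to the table of ratios because their estimation did not converge. Directions near 0 were not stable. For CAPN2 leaving out single animals gave -0.22 to 0.080, with values above 0 without Holstein 1 (0.02), Holstein 3 (0.080) or Japanese Black 1 (0.079). CAPN3 ranged from -0.15 (without Holstein 2) to 0.35, the brighter CAPNS1 probe set from -0.20 to 0.0061 (without Japanese Black 1) and the brighter CAST probe set from -0.086 (without Japanese Black 3) to 0.28, with -0.05 without Holstein 3. Array weights gave -0.080 for the brighter CAST probe set. When single animals were left out, the ratio to the brighter CAST probe set ranged from -0.41 to 0.13 for CAPN2, from -0.35 to 0.22 for CAPN3 and from -0.31 to 0.0032 for CAPNS1; over all alternatives that could be fitted the lowest values were -0.59, -0.46 and -0.61, with the dimmer CAST probe set as denominator. CAPN1, the dimmer CAPNS1 and the dimmer CAST probe set kept their direction under all 15 alternatives. No paired analysis was possible because no label says which animals form a pair.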
